A study of Mus musculus with 4 samples.

Results

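The genes described here are the ligands and receptors of the tumour necrosis factor (TNF) superfamily that carry a family number. They were chosen by name alone, as every gene symbol in both deposited tables that begins with Tnfsf or Tnfrsf followed by a digit. The rule found 31 of 23284 genes, 11 ligands (Tnfsf) and 20 receptors (Tnfrsf), and the same 31 stand in both tables. Family genes with other symbols, such as Tnf, Lta, Ltb, Fas and Cd40, fall outside the rule and are given as a separate list.

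TNF superfamily ligands are trimeric proteins, mostly held on the cell surface, that bind receptors with cysteine-rich repeats. The receptors recruit TRAF adaptor proteins that activate NF-kB and MAP kinases, or, in the death receptors, adaptors that start apoptosis. In the immune system several pairs act as costimulatory signals for T cells, others keep B cells and plasma cells alive, and others act on bone, epithelium and fibroblasts.

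The study sequenced lung RNA of C57BL/6 mice as 4 libraries with no replicates. One pair of libraries models allergic asthma: house dust mite (HDM) was given to sensitize and then challenge wild type animals and IL22-/- animals, and RNA was prepared 48 h after the final HDM dose. In the other pair, wild type animals without allergen received PBS or recombinant IL-22 by the intratracheal route 24 h before RNA was prepared. The labels give no age, no sex and no account of how the Il22 gene was disrupted, and give no number of animals behind each library.

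The largest difference among the members was that of Tnfrsf9, the T cell costimulatory receptor CD137. Its RefSeq gene lies at chr4:150920155-150946104 of GRCm38.p6, the assembly called mm10. The table lists a pair of transcripts for it, and in GENCODE M21 these start at separate sites, each of which follows a window of the RefSeq promoter table. The 250 bases before each start are shown because this gene carries the main result, with the 250 bases before a RefSeq transcript start of Tnfrsf4 and Tnfrsf18, other costimulatory receptors of T cells on that chromosome. All are RefSeq sequence of GRCm38.p6 on the + strand, 5′ to 3′, and capitals mark matches to an NF-kB, AP-1 or STAT3 motif.
Tnfrsf9 outer start, chr4:150919905-150920154: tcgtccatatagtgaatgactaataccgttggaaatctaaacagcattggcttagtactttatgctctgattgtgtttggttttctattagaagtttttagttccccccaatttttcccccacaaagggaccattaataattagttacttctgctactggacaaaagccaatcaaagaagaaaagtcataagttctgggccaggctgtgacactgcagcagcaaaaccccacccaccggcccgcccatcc
Tnfrsf9 inner start, chr4:150927749-150927998: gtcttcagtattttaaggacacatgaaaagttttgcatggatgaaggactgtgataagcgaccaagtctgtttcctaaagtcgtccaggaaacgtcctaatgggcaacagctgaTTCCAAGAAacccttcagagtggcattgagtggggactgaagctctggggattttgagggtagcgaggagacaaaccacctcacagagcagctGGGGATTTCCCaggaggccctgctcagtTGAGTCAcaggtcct
Tnfrsf4, chr4:156013445-156013694: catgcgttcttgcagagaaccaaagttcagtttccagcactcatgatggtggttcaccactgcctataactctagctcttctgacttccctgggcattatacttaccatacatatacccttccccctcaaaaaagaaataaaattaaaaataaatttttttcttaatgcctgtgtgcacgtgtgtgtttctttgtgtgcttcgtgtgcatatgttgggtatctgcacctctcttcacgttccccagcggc
Tnfrsf18, chr4:156026072-156026321: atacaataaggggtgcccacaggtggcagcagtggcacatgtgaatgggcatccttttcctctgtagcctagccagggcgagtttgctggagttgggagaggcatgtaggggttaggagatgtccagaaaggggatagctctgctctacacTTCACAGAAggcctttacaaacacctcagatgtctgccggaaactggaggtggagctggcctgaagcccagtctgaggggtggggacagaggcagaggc
The inner Tnfrsf9 window holds 2 overlapping NF-kB matches, which together span bases -43 to -33 counted from the transcript start, and 1 AP-1 match at -15 to -9. It also holds 1 STAT3 match at -136 to -128, and the Tnfrsf18 window holds 1 at -99 to -91. The outer Tnfrsf9 window and the Tnfrsf4 window hold no match to these letters. The motifs were the 10-base NF-kB consensus, TGANTCA for AP-1 and TTCNNNGAA for STAT3, searched on both strands. Of 32841 windows of the same length in the RefSeq table, 5.003% held the NF-kB motif, 6.75% the AP-1 motif and 7.02% the STAT3 motif. Of the 31 members 24 had at least 1 window, 28 windows in all. The respective motifs were held by 3 (10.7%), 5 (17.9%) and 5 (17.9%) of these 28 windows, which belong to 3, 5 and 5 genes. These shares rest on few windows and were not tested. A match describes the letters only and is not a measured binding site.

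The values were FPKM, fragment counts scaled to transcript length and to library size, so levels can be set side by side between genes. By the whole-read steps of low values the libraries held an estimated 19967000 to 28806000 reads. Il22 itself was at 0.362 FPKM in the wild-type HDM library and was listed at 0 in the other 3, so its 0 in the knockout does not tell that library from an unchallenged wild type. Lung identity was clear in all 4 libraries, with Scgb1a1, the secretoglobin of club cells, at 17.6 to 20.5% of total FPKM. With 1 library per group no difference has a replicate check and no p-value is given. Differences are of log2(FPKM + 1) and are taken only within a table. Levels in all 4 libraries are also set side by side. The tables may have been normalized separately and differ in treatment and time, so such orders of libraries are description only. A gene is called lower or higher when its difference reaches the size rule of 1 and its mean FPKM over that table's 2 libraries reaches the filter of 1.

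**Figure D1:**
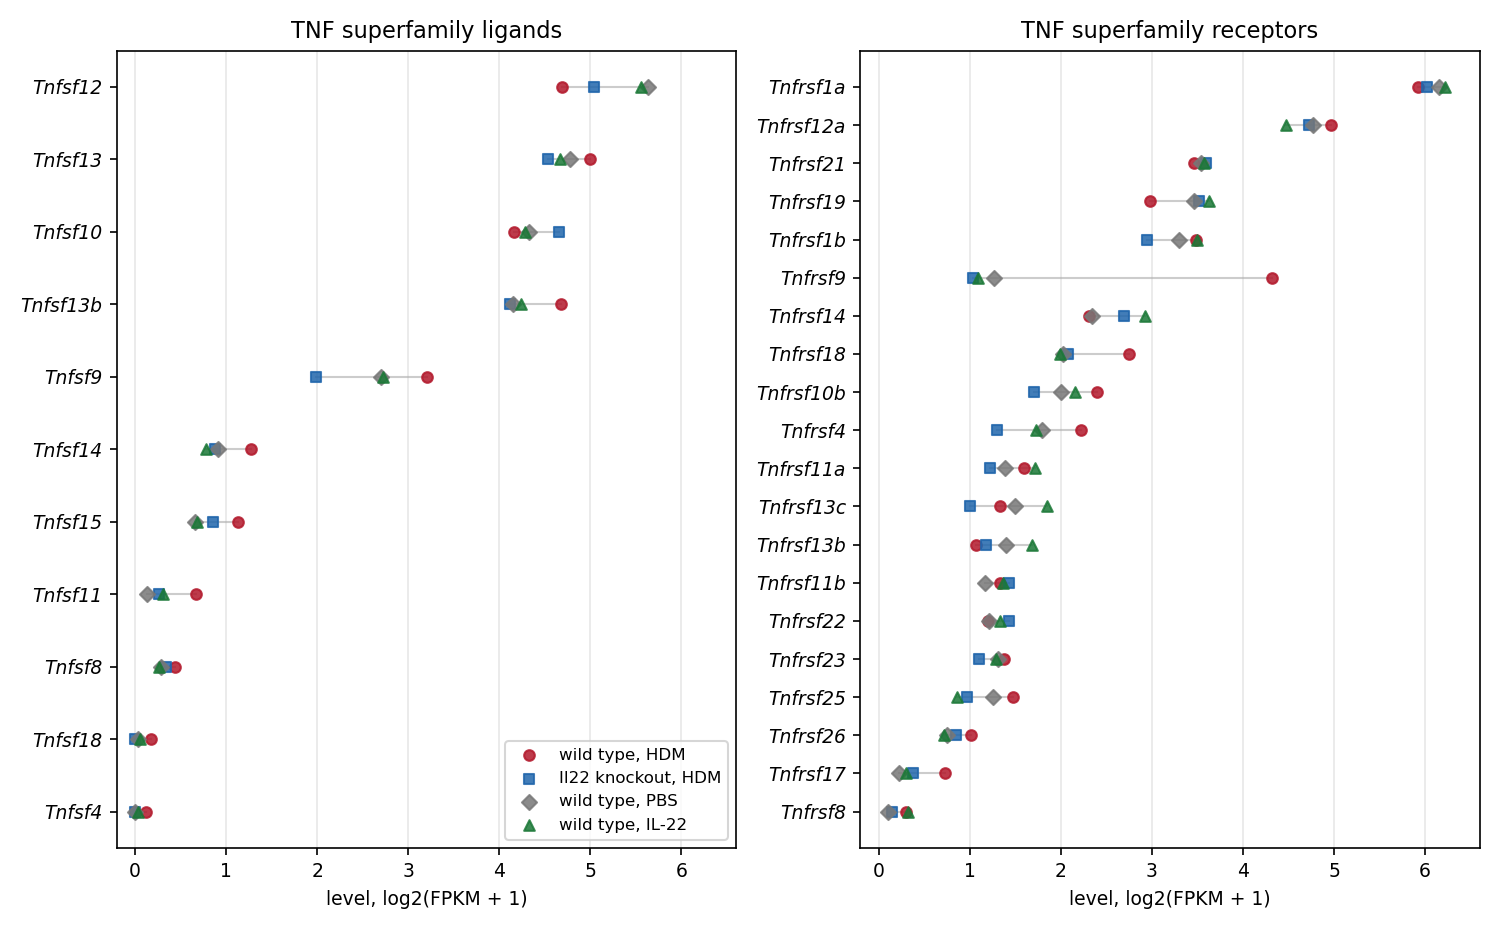
Level of each of the 31 members as log2(FPKM + 1), ligands at left and receptors at right, ordered by the mean of the 4 libraries. Each point is 1 library. Tnfrsf9 stands at 18.98 FPKM in the wild-type HDM library and at 1.04 to 1.41 in the other 3, while Tnfrsf1a is the highest member in every library.

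The family covered a wide range of levels in lung. Tnfrsf1a, the main TNF receptor of most cell types, was the highest member in all 4 libraries, at 59.5 FPKM in wild-type HDM, 63.8 in knockout HDM, 70.4 with PBS and 73.5 with IL-22. High in every library were also the ligands Tnfsf12 (TWEAK), Tnfsf13 (APRIL), Tnfsf10 (TRAIL) and Tnfsf13b (BAFF) and the receptor Tnfrsf12a (Fn14), each at 16.3 to 48.5 FPKM. At the other end, 7 members had a mean FPKM under 1 in both tables, namely Tnfsf4, Tnfsf8, Tnfsf11, Tnfsf18, Tnfrsf8, Tnfrsf17 and Tnfrsf26. The member whose rank moved most between libraries was Tnfrsf9, which ranked 6 of 31 in the wild-type HDM library and 19 to 21 in the others. Tnfrsf21 (death receptor 6) varied least, at 10.05 FPKM in wild-type HDM, 11.04 in knockout HDM, 10.6 with PBS and 10.9 with IL-22.

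The HDM pair sets the knockout library against the wild-type library in allergic inflammation, with 1 library per genotype. Of the 24 members that passed the filter on low values in this table, 2 were lower in the knockout library and none higher. They are Tnfrsf9 and its ligand Tnfsf9. The share called lower was 8.33% of these members and 2.42% of all 13285 genes tested, and the share of all genes called higher was 0.549% (either way 2.97%). With a size rule of 1.5-fold, 5 of the 24 were lower and none higher, where 6.41% of all genes were lower, 3.23% higher and 9.64% either. The median difference of the 24 was -0.31, against 0.03 for all genes, and 15 of them (62.5%) lay below 0, against 46.1% of all genes, with 9 above 0, against 53.9%. Tnfsf14, Tnfsf15 and Tnfrsf25 were at 1 FPKM or more in the wild-type library only, so the filter favours a negative value for them.

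Tnfrsf9 was at 18.98 FPKM in the wild-type HDM library and at 1.04 in the knockout HDM library. The difference was -3.29, an 18.2-fold lower FPKM, and ranked 26 from the lowest among all genes. In the other table it was at 1.41 with PBS and 1.13 with IL-22, so the wild-type HDM library alone stands high and the other 3 lie close together. Depending on which of its transcripts the reads came from, the values equal 852 to 907 reads in wild-type HDM and 51 to 54 in the knockout. The ratio of reads after depth was 0.0551, with an exact binomial 95% interval of 0.0410 to 0.0728. Such intervals cover counting error only and compare libraries, not genotypes.

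Tnfsf9, the CD137 ligand found on antigen-presenting cells (chr17:57105287-57107758), was at 8.21 FPKM in wild-type HDM and 2.95 in knockout HDM. The difference was -1.22, a 2.78-fold lower FPKM, from an estimated 223 and 88 reads (ratio 0.361, interval 0.279 to 0.464). With PBS it was at 5.49 and with IL-22 at 5.62, so the knockout HDM library was the lowest of the 4 and wild-type HDM the highest. The ligand thus differed from its receptor in pattern, since the receptor was low in both libraries without allergen.

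**Figure D2:**
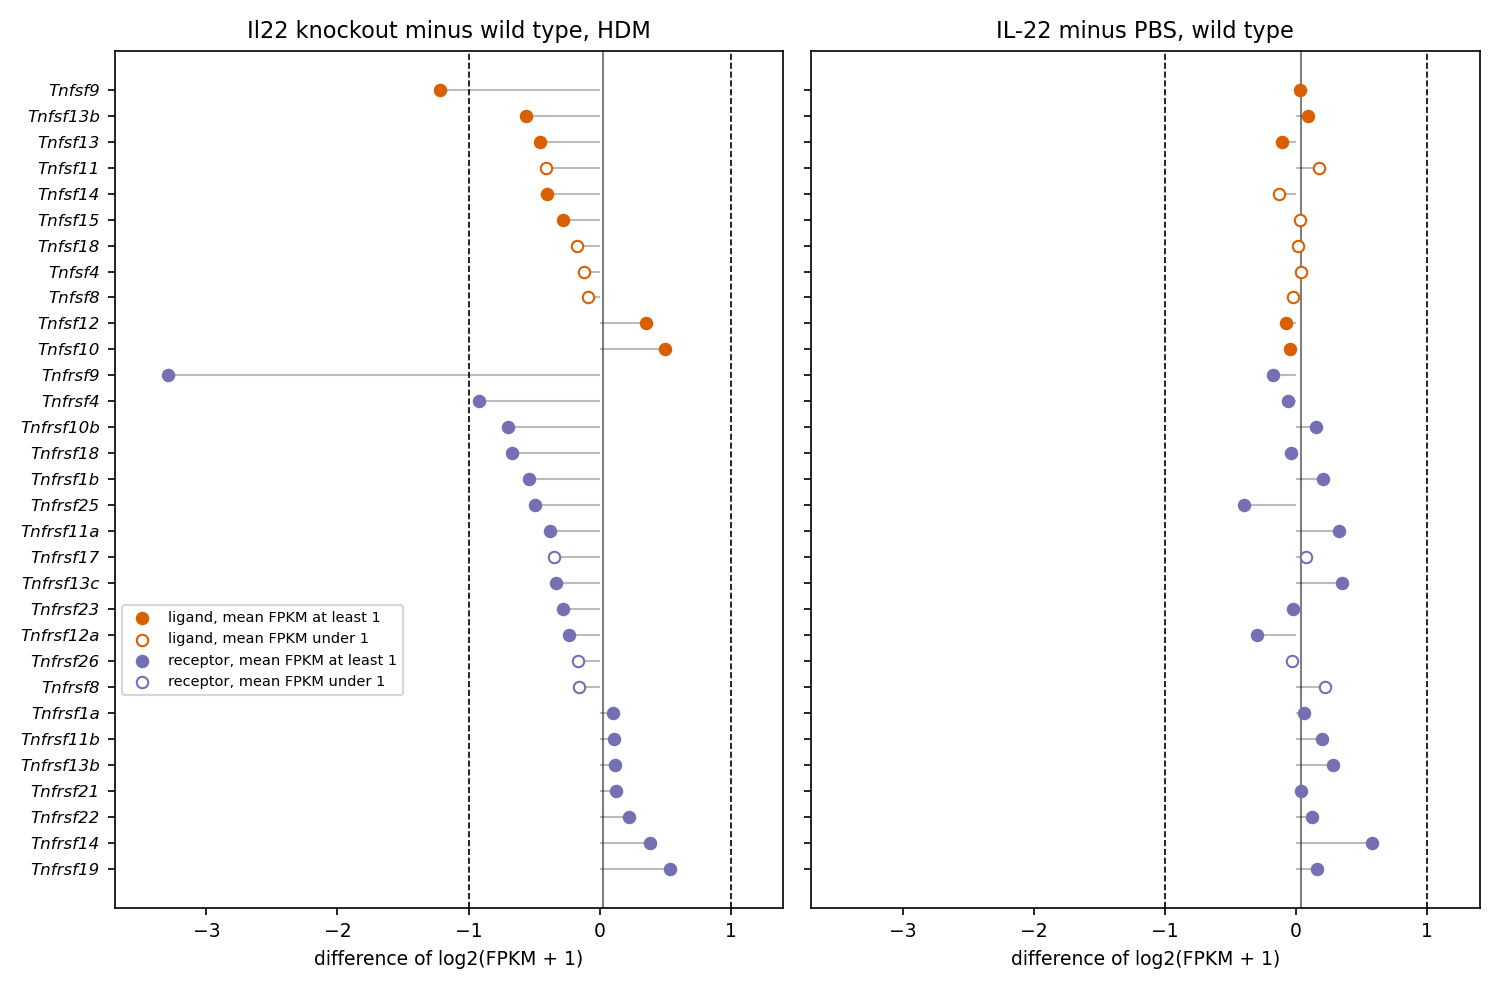
Difference of log2(FPKM + 1) for each of the 31 members, in the HDM table (left) and in the PBS and IL-22 table (right). Filled points have a mean FPKM of at least 1, dashed lines mark the size rule of 1 and the grey line the median of all genes. Only Tnfrsf9 and Tnfsf9 pass the rule, both on the left.

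Other receptors that costimulate T cells did not reach the size rule and differed in sign. Tnfrsf4, Tnfrsf18 and Tnfrsf25 lay below 0, while Tnfrsf14, given with its ligand further on, lay above it, at 0.39. Cd27, a family gene under another symbol, was at 1.81 against 2.47 FPKM, a difference of 0.31. Cd27 had an estimated 18 and 26 reads, a ratio of 1.32 (0.698 to 2.56), so no difference was detectable for it at this depth. Tnfrsf4 (OX40) was at 3.65 FPKM in wild-type HDM, 1.46 in knockout HDM, 2.46 with PBS and 2.32 with IL-22. Its HDM difference of -0.92 was just short of the rule, with a read ratio of 0.398 (0.256 to 0.606). With a pseudocount of 0.1 in place of 1 the difference was -1.27 and Tnfrsf4 was past the rule. Tnfrsf18 (GITR), a receptor abundant on regulatory T cells, was at 5.72, 3.23, 3.07 and 2.97 FPKM in the same order, a HDM difference of -0.67. In it the wild-type HDM library stands above the other 3, which differ little. Tnfrsf25 (death receptor 3) was at 1.77, 0.966, 1.39 and 0.814 FPKM, a HDM difference of -0.49.

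Their ligands were low. Tnfsf18 (GITR ligand) had 6 reads in wild-type HDM, 0 in knockout HDM, 1 with PBS and 2 with IL-22, and the read ratio of the HDM pair had an upper 95% limit of 0.778. Tnfsf4 (OX40 ligand) was at 0.0852 FPKM in wild-type HDM, 0.0246 with IL-22 and listed at 0 in the other 2 libraries, and no difference was detectable at this depth. Tnfsf15 (TL1A), the ligand of Tnfrsf25, was at 1.195, 0.806, 0.578 and 0.608 FPKM, with a HDM difference of -0.28. Tnfsf8 (CD30 ligand) stayed between 0.205 and 0.355 FPKM. Its receptor Tnfrsf8 (CD30), found on activated lymphocytes, ranged from 0.0727 FPKM with PBS to 0.252 with IL-22.

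Markers of T cells lay below 0 as well. Of the 7 T cell markers 6 passed the filter, all below 0 and none past the size rule, with a median of -0.63. Of these, Cd28 and Icos were at 1 FPKM or more in the wild-type library only, so the filter favours a negative value for them. The list summed to 42.8 FPKM in wild-type HDM, 26.7 in knockout HDM, 27.6 with PBS and 29.9 with IL-22, and none of its genes was at 0. Of the 4 regulatory T cell markers, 2 passed the filter and Ctla4, an inhibitory receptor, was called lower, at 3.95 against 0.613 FPKM, also past 1 FPKM in wild type only. Foxp3, which defines these cells, was under the filter at 0.767 against 0.242. The regulatory T cell list summed to 7.26, 2.65, 1.95 and 2.58 FPKM in the same order. The 5 markers of ILC2, innate lymphoid cells, summed to 33.3, 15.4, 10.7 and 13.5, of which Arg1 alone made up 17.6, 2.04, 1.84 and 3.09. In the HDM pair Arg1 was called lower, and Il1rl1 and Klrg1 lay below 0, at -0.76 and -0.85. Gata3 and Rora lay above 0, at 0.19 and 0.23, and the list median was -0.76. Of 5 NK cell markers 4 passed the filter in the HDM pair, with a median of 0.14. Ncr1 and Prf1 lay above 0, at 0.34 and 0.42, and Klrd1 and Gzma below it, at -0.11 and -0.05.

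Most markers of antigen-presenting cells, which can carry Tnfsf9, lay below 0 in the HDM pair. All 6 dendritic cell markers lay below 0 in the HDM pair, with a median of -0.51 and a sum of 27.2 against 17.9 FPKM. Of these, Xcr1 was at 1 FPKM or more in the wild-type library only, so the filter favours a negative value for it. All 8 monocyte and interstitial macrophage markers lay below 0 and 3 were called lower, the complement genes C1qa, C1qb and C1qc, and the list summed to 517 against 237 FPKM. Of 6 alveolar macrophage markers 3 were called lower (Chi3l3, Itgax and Mrc1) and 2 lay above 0, Marco at 3.07 against 4.43 FPKM and Siglec5 at 4.06 against 4.35. That list summed to 2626 against 525, of which Chi3l3 alone made up 2438 and 367. Tissue lists also moved in this pair: all 5 heart muscle markers were lower, and 3 of 4 erythroid markers were higher. The part of any of these cell types in the differences of the members was not tested, and in whole lung fewer cells of a type and less RNA per cell cannot be told apart.

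Of the ligands and receptors that sustain B cells and plasma cells, only Tnfrsf13b, at 0.11, lay above 0 in the HDM pair. Tnfsf13b (BAFF) was at 24.6 FPKM in wild-type HDM, 16.3 in knockout HDM, 16.8 with PBS and 17.9 with IL-22. The HDM difference was -0.56, and the wild-type HDM library alone stands high. Tnfsf13 (APRIL) was at 30.9, 22.3, 26.5 and 24.4, a HDM difference of -0.46. Of their receptors, Tnfrsf13c (BAFF receptor), which naive B cells need to survive, was at 1.52, 1.01, 1.82 and 2.60 FPKM, and Tnfrsf13b (TACI) at 1.10, 1.27, 1.64 and 2.21. Tnfrsf13b had 15 and 19 reads in the HDM pair, a ratio of 1.16 (0.558 to 2.45). Tnfrsf17 (BCMA), the receptor of plasma cells, had 10 and 5 reads, a ratio of 0.458 (0.123 to 1.47), so for neither was a difference detectable at this depth. B cell markers differed little, with a median of -0.04 and a sum of 46.9 against 45.3 FPKM. The 4 measured plasma cell markers had a median of -0.0036, with Igj, the antibody joining chain, and Xbp1 below 0, at -0.64 and -0.16, and Sdc1 and Prdm1 above it, at 0.15 and 0.20.

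Tnfsf12 and Tnfsf13 are neighbours on chromosome 11, and their values are uncertain. The row named Tnfsf12 carries the accession of Tnfsfm13, a readthrough transcript that joins both genes, so reads of either gene can be counted there. It was at 24.8 FPKM in wild-type HDM and 31.8 in knockout HDM, and at 48.5 with PBS and 46.0 with IL-22. Its HDM difference was 0.35 while that of Tnfsf13 was -0.46. Tnfrsf12a (Fn14), the receptor of Tnfsf12 that is induced in injured epithelium and fibroblasts, was at 30.2, 25.5, 26.4 and 21.2 FPKM.

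Ligand and receptor of the TRAIL system differed in sign. Tnfsf10 (TRAIL), which triggers apoptosis, was at 16.9 FPKM in wild-type HDM, 24.3 in knockout HDM, 19.1 with PBS and 18.4 with IL-22. The HDM difference was 0.50, the highest among the ligands, and the knockout HDM library was the highest of the 4. Its death receptor Tnfrsf10b (DR5) was at 4.28, 2.26, 3.01 and 3.45 FPKM, a HDM difference of -0.70, with the knockout HDM library the lowest. The read ratios of the HDM pair were 1.43 (1.36 to 1.52) for the ligand and 0.525 (0.436 to 0.632) for the receptor, and neither passed the size rule. The decoy receptor Tnfrsf22 was at 1.30, 1.69, 1.31 and 1.52 FPKM in that order, and the decoy Tnfrsf23 at 1.60, 1.14, 1.48 and 1.43, with HDM differences of 0.23 and -0.28. Tnfrsf26, their neighbour, was at 1.02, 0.803, 0.683 and 0.647, under the filter in each table. The 3 genes are tandem paralogs within 78752 bases of chromosome 7, so reads may be shared between them.

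The TNF receptors differed from each other. Tnfrsf1a had a HDM difference of 0.10. Tnfrsf1b, the receptor of leukocytes and endothelium, was at 10.2 FPKM in wild-type HDM, 6.73 in knockout HDM, 8.81 with PBS and 10.3 with IL-22, a HDM difference of -0.54. The knockout HDM library was the lowest of the 4. Their ligands were low. Tnf was at 0.791, 0.258, 0.599 and 1.61 FPKM, under the filter in the HDM pair. There it had an estimated 28 and 10 reads, a ratio of 0.327 (0.142 to 0.694). Lta had 13 and 11 reads in the HDM pair, a ratio of 0.775 (0.314 to 1.87).

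In the RANK system, which governs osteoclasts and lymph node formation, the ligand Tnfsf11 (RANKL) had 30 reads in wild-type HDM, 11 in knockout HDM, 4 with PBS and 14 with IL-22. The ratio of the HDM pair was 0.336 (0.152 to 0.689), although the FPKM stayed under the filter at 0.590 and 0.198. The receptor Tnfrsf11a (RANK) was at 2.02, 1.33, 1.61 and 2.28 FPKM, and the soluble decoy Tnfrsf11b (osteoprotegerin) at 1.51, 1.70, 1.24 and 1.57. The decoy thus lay slightly above 0 in the HDM pair, at 0.11, while ligand and receptor lay below it, at -0.41 and -0.38.

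A few receptors had the reverse pattern. Tnfrsf19 (TROY), an orphan receptor with no ligand among the pairs used, was at 6.87 FPKM in wild-type HDM, 10.4 in knockout HDM, 10.03 with PBS and 11.3 with IL-22. Its HDM difference of 0.54 was the highest of the 24, and here the wild-type HDM library alone stands low. Tnfrsf14 (HVEM) was at 3.94, 5.46, 4.05 and 6.56 FPKM, a HDM difference of 0.39, while its ligand Tnfsf14 (LIGHT), a product of activated T cells, was at 1.43, 0.840, 0.875 and 0.710, a difference of -0.40.

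**Figure D3:**
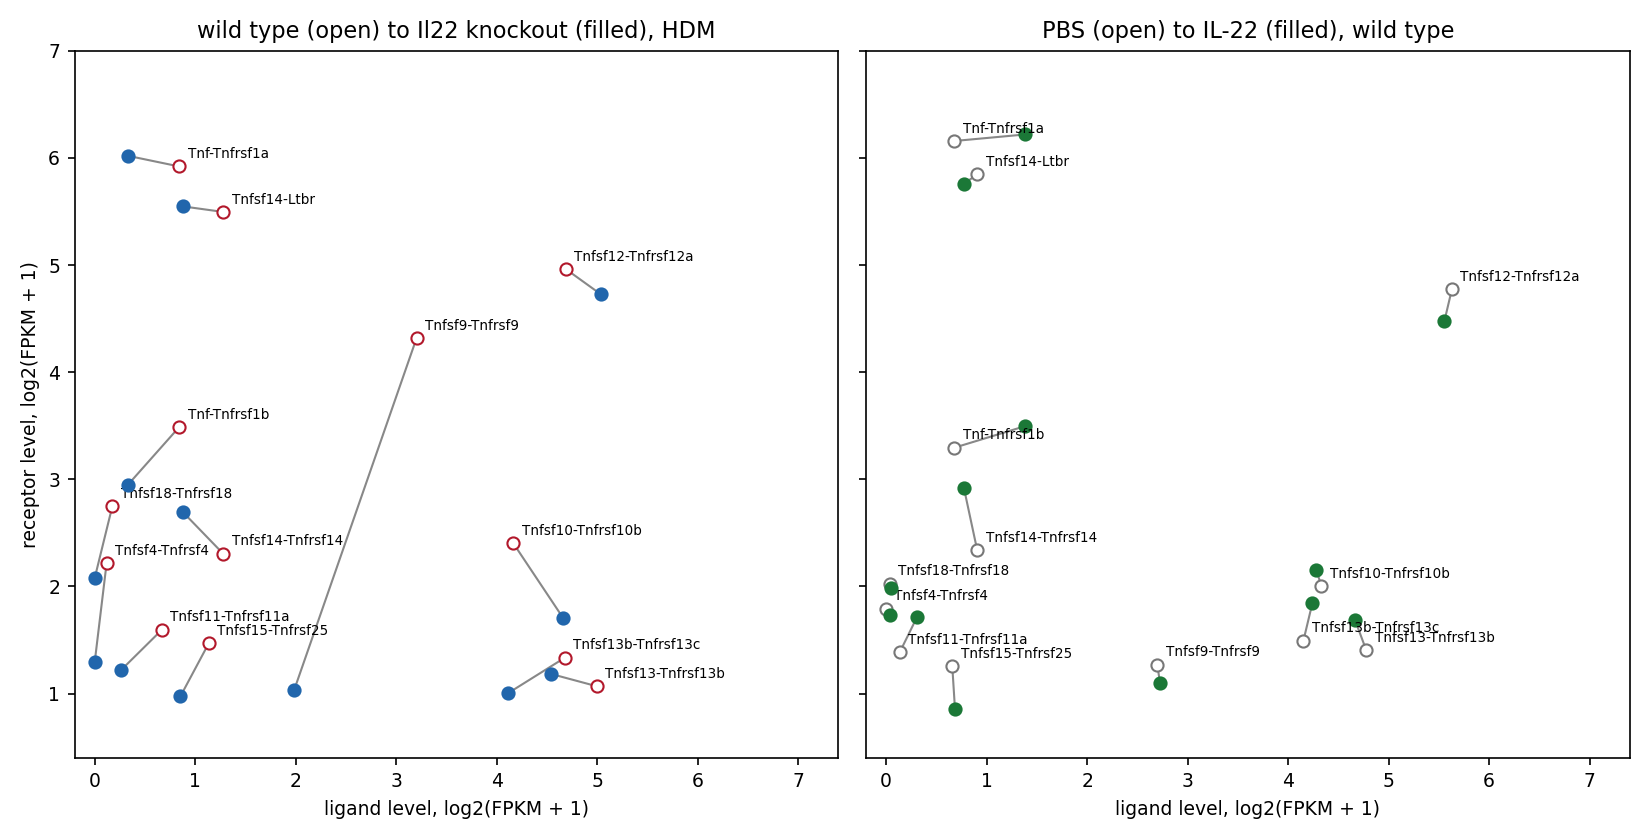
Ligand level against receptor level, both as log2(FPKM + 1), for 13 pairs. Lines join the libraries of a table, from wild type to knockout after HDM at left and from PBS to IL-22 at right. In the HDM table the line of Tnfsf9 and Tnfrsf9 is the longest and runs down on both axes, while that of Tnfsf10 and Tnfrsf10b runs up for the ligand and down for the receptor.

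Set side by side as 23 known ligand and receptor pairs, which include Tnf, Lta and Ltbr, 12 had both partners past the filter in the HDM table. In 5 of these 12 both partners differed in the same direction. The pairs share partners, so they are not independent. Tnfsf9 with Tnfrsf9 was the only one of the 12 with both partners past the size rule. This follows from the calls given above, as no other partner was past it. Across the 4 libraries, in tables that may have been normalized separately, 9 of 11 ligands and 9 of 20 receptors were highest in wild-type HDM. These counts took in members under the filter, among them the ligands Tnfsf4, Tnfsf8, Tnfsf11 and Tnfsf18. The share of all genes highest in that library was not computed, so the counts show nothing particular to the family. The summed level of all members ranged only from 241 FPKM in the knockout HDM library to 275 in wild-type HDM, with 270 for PBS and 271 for IL-22.

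The other pair shows lungs without allergen, 24 h after IL-22 or PBS was placed in the airways. No member of the 22 that passed the filter was past the size rule, where 0.786% of all 13233 genes were, 0.189% lower and 0.597% higher. None passed a size rule of 1.5-fold either, where 0.461% of all genes were lower, 1.96% higher and 2.42% either. The differences ran from -0.40 to 0.58 with a median of 0.05, against 0.04 for all genes, and 13 members (59.1%) lay above 0, against 58.6% of all genes, with 9 below 0, against 41.4%. Tnfrsf14 had the highest value, 0.58, at 4.05 FPKM after PBS against 6.56 after IL-22, and a read ratio of 1.63 (1.21 to 2.21). Tnfrsf25 had the lowest, -0.40, at 1.39 against 0.814 FPKM, and a read ratio of 0.587 (0.357 to 0.957), but it passed the filter only through the PBS library, which favours a negative value. The members' share above 0 was thus close to that of all genes. Scaling to a common total, which moved the median of all genes to 0.13, turned 5 further members to above 0, each from a value within 0.08 of 0.

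Receptors of B cells and the RANK receptor lay above 0 with IL-22. The differences were 0.35 for Tnfrsf13c, 0.33 for Tnfrsf11a and 0.28 for Tnfrsf13b. Tnfrsf13b had 18 and 35 reads, a ratio of 1.35 (0.743 to 2.53), so no difference was detectable for it at this depth. The read ratios were 1.42 for both others, with intervals of 1.04 to 1.95 for Tnfrsf13c and 1.17 to 1.73 for Tnfrsf11a. B cell markers had a median of 0.10 in this pair, with Ms4a1 at 0.47 and Pax5 at -0.56, and their part was not tested. Lists of other cells moved in this pair: 3 of 5 smooth muscle markers, all 3 measured fat cell markers and, among 8 for monocytes and interstitial macrophages, 2 were higher with IL-22. Tnfrsf12a lay below 0, at -0.30. Tnfrsf9 and Tnfsf9, the members that differed most in the HDM pair, had values of -0.17 and 0.03, and the sign of the latter turned when libraries were scaled by the median ratio. The 5 ligands that passed the filter lay between -0.11 and 0.09. Under the filter, Tnfrsf8 was at 0.0727 FPKM with PBS and 0.252 with IL-22. Its estimated reads were 5 and 23, a ratio of 3.19 (1.19 to 10.7). Tnfsf11, also under the filter, had 4 and 14 reads, a ratio of 2.43 (0.762 to 10.1).

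**Figure D4:**
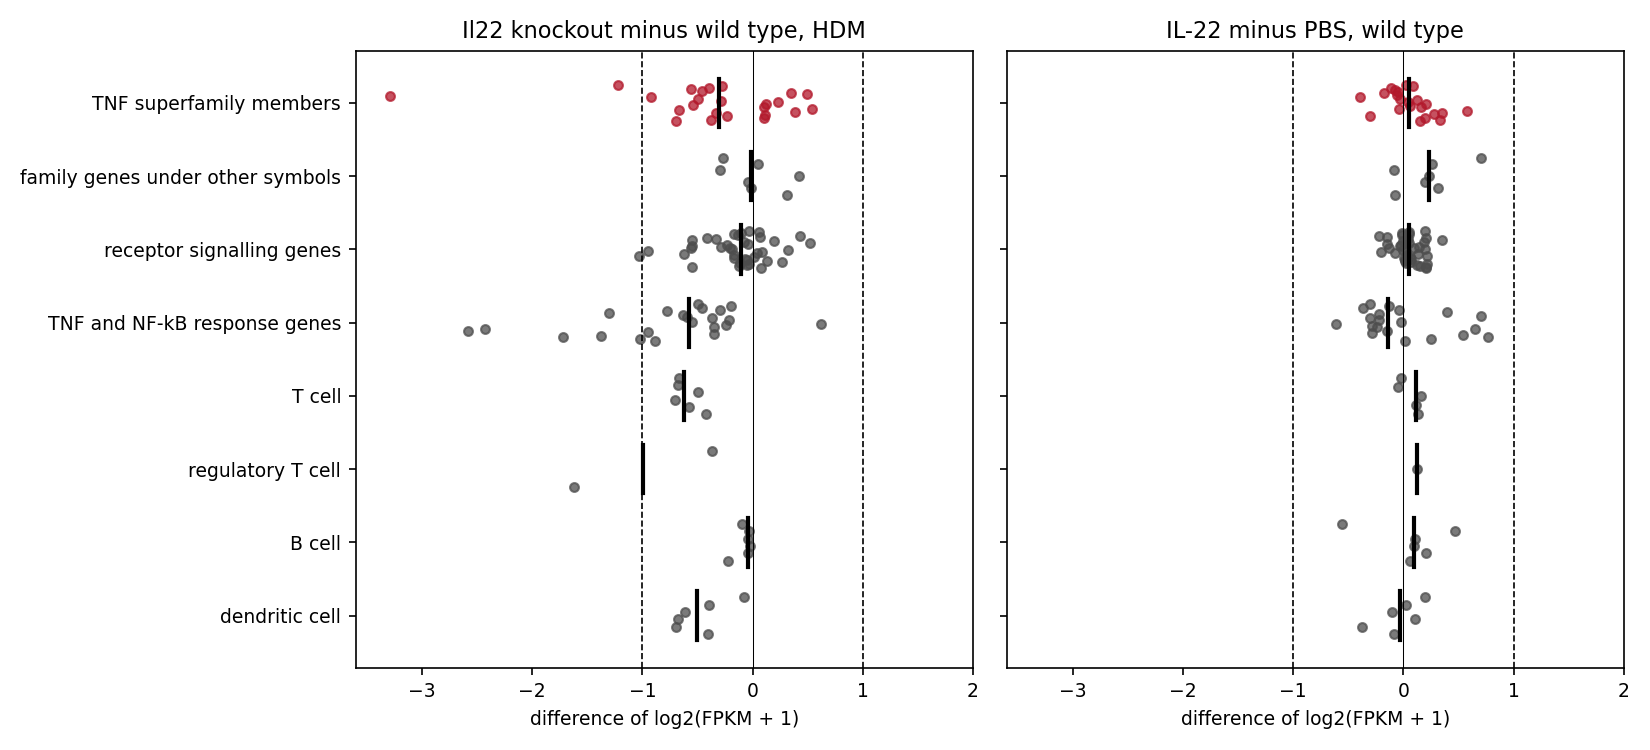
Differences of log2(FPKM + 1) for the members (red) and for 7 other lists (grey), in the HDM table at left and in the PBS and IL-22 table at right. Each point is a gene with a mean FPKM of at least 1, black bars are list medians and dashed lines the size rule. In the HDM table the medians are -0.31 for the members, -0.57 for the response genes and -0.10 for the signalling genes.

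Of the 15 family genes under other symbols 7 passed the filter in each table, and none was past the size rule in either. In the HDM pair their median was -0.02, with Fas, the death receptor of FasL, at 36.2 against 48.7 FPKM (wild type first), and Cd40 at 8.26 against 8.17. In the IL-22 pair the median was 0.24, and Tnf had the highest value, 0.71, at 0.599 FPKM after PBS against 1.61 after IL-22. It passed the filter only through the IL-22 library, which favours a positive value. Its estimated reads were 17 and 67, a ratio of 2.73 (1.59 to 4.96).

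Genes that carry the signal inside the cell differed little. Of 39 adaptors, kinases and NF-kB subunits, 1 (2.56%) was lower in the HDM pair, against 2.42% of all genes, and none was higher. The median was -0.10, against 0.03 for all genes, and 27 (69.2%) lay below 0, against 46.1%. The gene called lower was Mlkl, the executor of necroptosis, at 7.38 against 3.10 FPKM. The NF-kB inhibitor Nfkbie, at 5.55 against 2.39, was just short of the rule. Nfkb2 and Relb, the subunits of the noncanonical NF-kB pathway, had differences of -0.62 and -0.56. None of the 39 was past the rule with IL-22, where the median was 0.05.

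Of 25 genes known to respond to TNF and NF-kB 22 passed the filter in the HDM pair. Of these 22, 6 (27.3%) were lower, against 2.42% of all genes, and none was higher, against 0.549%. Below 0 lay 21 (95.5%), against 46.1% of all genes, and the median was -0.57, against 0.03. The 6 were the chemokines Cxcl1, Cxcl10, Ccl2 and Ccl20, the endothelial adhesion gene Sele and the NF-kB cofactor Bcl3. Cxcl1 was at 11.5 against 1.08 FPKM, with a difference of -2.58, the lowest of the list. Sele was at 1.90 against 0.175, and passed the filter only through the wild-type library, which favours a lower call. Bcl3 was at 16.2 against 7.48. Ier3 was the exception, at 45.1 against 69.6. Several of these are also induced by other cytokines. The list of 25 was chosen with earlier results of these data known, so its shares are not an independent contrast with all genes. In the IL-22 pair none of the 20 measured was past the rule and the median was -0.14.

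By position, 9 of the 31 members lie on chromosome 4, and 15 lie within 1 Mb of another member. Neighbours differed in sign in some cases, as for Tnfsf12 and Tnfsf13, and not in others. Tnfrsf4 and Tnfrsf18, whose windows are printed above, span 15300 bases and had differences of -0.92 and -0.67. Tnfsf9 and Tnfsf14 span 88895 bases of chromosome 17 and had differences of -1.22 and -0.40.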

How the data were processed

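The members, lists and tests were chosen with earlier results of these data known. Per the submitters' processing notes, which name no roles, CASAVA 1.8.2, TopHat2, Cufflinks 2.2.1 and the build mm10 were used. The values the authors deposited are FPKM of each gene, with the HDM libraries in a table of their own and the PBS and IL-22 libraries in another. Any scaling between libraries is not given in the sources used here.

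Tables were joined on symbol and accession (23746 rows), 25 date-like symbols were restored from the accession and rows of a symbol were added, which left 23284 genes. Differences are of log2(FPKM + 1), with no test because each group has 1 library. FPKM steps gave the depth: values times the GENCODE M21 transcript length less 200 bases fell within 0.1 of a whole read in 58.2 to 59.6% of low values per library, where chance gives 20%. The fit gave 24968000 reads for wild-type HDM, 27269000 for knockout HDM, 19967000 for PBS and 28806000 for IL-22. Reads are called whole where every value of a member under 30 reads met that tolerance (Tnfsf11, Tnfsf18, Tnfrsf13b and Tnfrsf17), and are estimates for the other members.

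Every member is accounted for, and of the other lists at most the 6 largest differences past the size rule are named by rule. Further list genes were named as examples after their values were seen. The steps were tested on simulated data. Alternatives were another pseudocount, 2 scalings, 2 filters and a lower size rule. Work was done in Python 3.11.15 (pandas 2.3.3, numpy 2.4.6), with intervals from scipy 1.17.1 and plots from matplotlib 3.10.9.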

Additional observations from a re-analysis of the deposited data

How the results depend on the processing

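The number of members past the size rule was 2 in the HDM pair as reported, under both scalings, without a filter and with a mean FPKM of at least 5, and 3 with a pseudocount of 0.1, which added Tnfrsf4. With a size rule of 1.5-fold it was 5, all lower, where 9.64% of all genes passed in either direction. In the IL-22 pair it was 0 under every one of these settings. The median of the members in the HDM pair was -0.49 with a pseudocount of 0.1, -0.35 when scaled by the median ratio, -0.32 when scaled to a common total, -0.28 without a filter and -0.24 with a mean FPKM of at least 5. In the IL-22 pair it was 0.012, 0.15, 0.035 and 0.038 under the scaling by the median ratio, the scaling to a common total, no filter and the higher filter. Scaling to a common total moved the median of all genes in that pair from 0.04 to 0.13 and turned the sign of 5 members, all within 0.08 of 0 (Tnfrsf4, Tnfrsf18, Tnfrsf23, Tnfsf10 and Tnfsf12). No member turned sign in the HDM pair under the other pseudocount or either scaling. No paired analysis was possible because each group has 1 library. For the same reason no library could be left out. Depth limits what can be said of Tnfsf4, Tnfsf8, Tnfsf11, Tnfsf18, Tnfrsf8, Tnfrsf13b and Tnfrsf17, which had at most 35 reads, in part estimated, in any library.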

Other observations

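Gene families that share part of the name but are not superfamily members showed other patterns. The Tnfaip genes were named as TNF-induced and are largely unrelated to each other in function, and of 8 genes 7 were measured in the HDM pair. None was past the size rule, 6 lay below 0 and the median was -0.34. Of the 6, Tnfaip8l1 was at 1 FPKM or more in the wild-type library only, so the filter favours a negative value for it. Tnfaip8, at 10.4 against 6.52 FPKM (wild type first), had the lowest difference, -0.60. The C1qtnf genes encode secreted proteins whose globular domain resembles the fold of TNF, and their 7 measured members all lay above 0 in the HDM pair, with a median of 0.18 and none past the rule. C1qtnf7 was at 21.6 against 32.7 FPKM. With IL-22, C1qtnf4 was at 1.84 FPKM against 3.14 with PBS, a difference of -0.54, and C1qtnf2 at 30.6 against 40.9. These families were chosen after the tables were seen.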
